A study of Homo sapiens with 4 samples.

Results

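The chromosome-end regions of the autosomes are the outermost 3 Mb of the chromosome arms, here described by the CLIP-seq peaks of SAF-A that lie in them. A peak belonged to an end if its midpoint lay in the first 3 Mb or in the last 3 Mb of chromosomes 1 to 18, 20, 21 and 22, the start being left out for the 5 chromosomes 13, 14, 15, 21 and 22. The end of a chromosome was the largest end position of any listed peak on it. These were 37 ends, 16 on the short (p) arm and 21 on the long (q) arm, and they covered 111 of the 2820 Mb of the 21 chromosomes, or 3.94%. They held 11249 of the 278959 peaks listed in all, and the rest of the same chromosomes held 244868.

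SAF-A, scaffold attachment factor A, also called hnRNP U, is an abundant nuclear protein that binds both RNA and DNA and holds RNA to chromatin. CLIP-seq crosslinks protein to RNA with ultraviolet light in living cells and sequences the RNA fragments that come down with the protein. There were 2 pull-downs with a SAF-A antibody from HCT116, an established human colorectal carcinoma line with wild-type SAF-A. They were set against 2 input samples, taken from the same kind of crosslinked lysate before the antibody step and cut from the membrane at the same size. No treatment separates the groups, so each comparison asks where peaks lie after selection with the antibody, relative to RNA of the same size without it. The labels do not state that replicates 1 and 2 were separate cultures. The p-values therefore describe the spread of these samples alone, and that spread may be technical.

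Chromosome ends differ in what they carry. The last megabases of many human arms, such as 17q, 9q, 8q, 16p and 1p, are crowded with short genes that are active in most cells, and are rich in G and C. Others, such as 8p, 9p and 11q, carry a few very long genes, many of them used mainly in brain or during development. All arms finish in subtelomeric repeats and the telomere, to which short reads can seldom be placed.

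The pull-down lists held 96061 and 111256 peaks and the input lists 29386 and 42256, so a larger number of peaks at a given end is not by itself a difference. Shares within a list were therefore compared. The lists hold peaks and not reads, so read depth is unknown, and a share of peaks says how many sites were listed and not how much RNA was bound. Positions are given 1-based and were taken as GRCh37, for the reason given with the processing. No genome or gene annotation of that build was used here, so no peak was assigned to a gene and no sequence is shown. Genes named below are those that RefSeq's order on GRCh38.p14 places at that tip, as a guide to the region, and none of them was measured.

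Peaks at the chromosome ends made up a smaller share of the pull-down lists than of the input lists. The ends held 3155 peaks in pull-down 1 and 3808 in pull-down 2, against 1806 in input 1 and 2480 in input 2. That was 3.56% (95% Wilson interval 3.44 to 3.68) and 3.71% (3.59 to 3.82) of the peaks of the 21 chromosomes in the pull-downs. In the inputs it was 6.83% (6.53 to 7.14) and 6.49% (6.25 to 6.74). These intervals express counting error alone, because peaks close together are not independent. Both pull-downs lay below both inputs, and the 2 replicates of a kind lay close together.

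The mean share over the 2 pull-downs was 3.63% ± 0.11, against 6.66% ± 0.24 over the 2 inputs (SD, n = 2 each). On the log2 scale, the ratio of peaks at the ends to peaks on the rest was 0.92 lower in the pull-downs, which is larger than the spread between replicates. The 2-sided exact permutation test over the 4 samples gave p = 0.333, the smallest p that 2 samples against 2 allow. Set against length, the pull-downs had nearly as many peaks per Mb at the ends as elsewhere, while the inputs had many more. Pull-down 1 had 28.4 peaks per Mb at the ends and 31.6 on the rest, and pull-down 2 had 34.3 and 36.5. Input 1 had 16.3 at the ends and 9.10 on the rest, and input 2 had 22.3 and 13.2. The density at the ends was thus 0.900 and 0.939 times that of the rest in the pull-downs, against 1.79 and 1.69 times in the inputs.

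The short and the long arms both showed the difference. Short-arm ends held 1.58% ± 0.04 of the pull-down peaks and 2.58% ± 0.02 of the input peaks. Long-arm ends held 2.05% ± 0.07 of the pull-down peaks and 4.08% ± 0.26 of the input peaks (SD, n = 2 each). No single end carried it: leaving out each of the 37 ends in turn gave log2 differences between -0.95, without 9p, and -0.84, without 17q.

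Peaks at the ends were also wider than elsewhere, and much more so in the inputs. A peak of at least 50 bases is called wide here. Wide peaks were 23.3% and 27.0% of the peaks at the ends in the pull-downs, against 44.5% and 45.5% in the inputs. On the rest of the chromosomes they were 16.2% and 19.2% in the pull-downs, against 20.0% and 25.1% in the inputs. The excess at the ends over the rest was 7.12 and 7.81 percentage points in the pull-downs, against 24.5 and 20.4 in the inputs. The groups did not overlap, and the mean difference was -15.0 points (exact permutation p = 0.333, 2-sided, the smallest possible). The median width at the ends was 16 and 18 bases in the pull-downs, against 37 and 41 in the inputs. On the rest it was 14 and 15 bases in the pull-downs, against 14 and 16 in the inputs.

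Counted by number, wide peaks at the ends did not separate the kinds of library, although the pull-down lists are much longer. There were 735 and 1030 wide peaks at the ends in the pull-downs, against 804 and 1129 in the inputs, so the groups overlapped. Narrow peaks at the ends numbered 2420 and 2778 in the pull-downs, against 1002 and 1351 in the inputs. As shares of their class, wide peaks lay at the ends at 5.09% ± 0.06 in the pull-downs, against 12.6% ± 2.0 in the inputs. The ends held 3.31% ± 0.07 of narrow pull-down peaks, against 4.82% ± 0.03 of narrow input peaks (SD, n = 2 each). Both classes were lower in the pull-downs in every pairing of libraries, and the gap was wider among wide peaks.

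**Figure D1:**
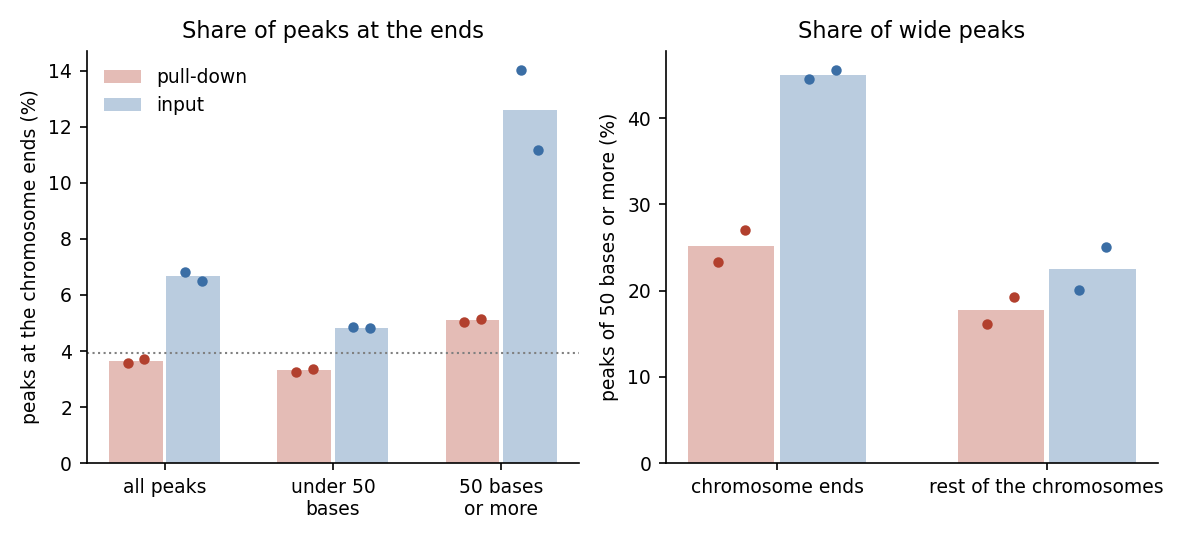
The left panel plots the percentage of peaks of the 21 chromosomes that lie at the ends, for all, narrow and wide peaks, with bars for group means, a point per library (n = 2) and a dotted line at the ends' 3.94% of the length. The right panel plots the percentage of wide peaks at the ends and on the rest, where inputs at the ends (44.5% and 45.5%) stand above all other values.

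Other properties differed less. The score that the authors deposited with each peak had a median of 18 and 17 at the ends in the pull-downs, against 15 in both inputs. On the rest, the median was 19 in both pull-downs and 17 in both inputs, so the ends were lower in every library. Whether a score means the same in different lists is not stated. The plus strand held 48.4% and 48.3% of end peaks in the pull-downs, against 47.0% and 46.3% in the inputs.

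The shift was strongest within 3 Mb of the tip. In bands of 1 Mb over all 37 ends, the log2 ratio of shares, pull-down over input, was -0.86 in the outermost Mb and -1.15 in the next. It was -0.54 from 2 to 3 Mb, just inside the 3 Mb limit, and -0.26 from 3 to 4 Mb, just outside it. From 4 to 5 Mb it was -0.31, no nearer to 0 than in the band before. From 5 to 10 Mb the bands ran between -0.20 and 0.07, and farther inside the ratio was 0.07. In the band from 1 to 2 Mb the share was 1.19% and 1.27% in the pull-downs, against 2.79% and 2.67% in the inputs. The lowest point was thus the second Mb and not the tip itself. Narrow peaks gave -0.58, -0.72 and -0.32 in the first 3 bands and wide peaks -1.12, -1.67 and -0.99. These bands are a description, with no test.

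**Figure D2:**
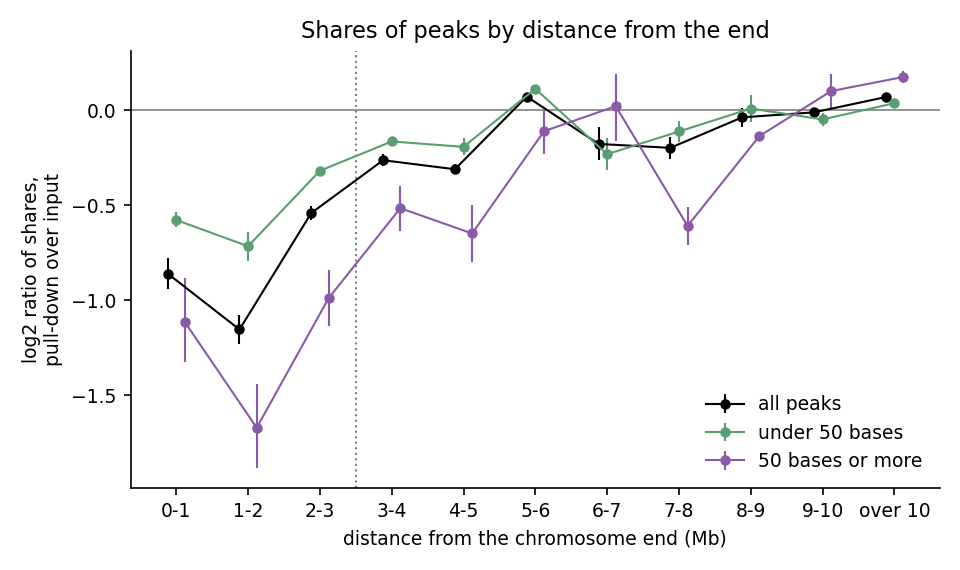
The log2 ratio of the shares of peaks (pull-down over input, vertical) is plotted by distance from the chromosome end in Mb (horizontal), for all, narrow and wide peaks. Vertical lines span the most extreme pairs of libraries, and the dotted line marks the 3 Mb limit. All 3 curves are lowest from 1 to 2 Mb.

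At the very tips the counts were small and the kinds of library lay closer together. The outermost 100 kb, counted from base 1 or from the last listed position, held 61 and 71 peaks in the pull-downs, against 23 and 30 in the inputs. These were 0.0688% and 0.0691% of the peaks in the pull-downs, against 0.0870% and 0.0785% in the inputs. A pull-down peak lay in that stretch at 28 of the 37 ends and an input peak at 20.

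Each end was then compared with the rest of its own chromosome, in 1 limma fit over 971 tiles of 3 Mb from all nuclear chromosomes. The fit draws the error of each tile towards a trend over all tiles, so that error is not the replicate spread of the tile alone. A tile was called when its Benjamini-Hochberg adjusted p over all tiles was below 0.05. Of the 37 ends, 24 were called lower in the pull-downs, 1 was called higher, and 12 passed in neither direction. Over all tiles, 16.3% were called lower and 21.2% higher. The median log2 ratio of the ends was -0.70, against 0.07 over all tiles tested. Both pull-downs lay below both inputs at 26 of the 37 ends, against 26.6% of all tiles, and above both at 5 of the 37, against 40.7% of all tiles. The lowest 10 tiles of the 971 included 7 ends, and the lowest 100 included 23. By arm, 15 of 21 long-arm ends were called lower and 0 higher, and 9 of 16 short-arm ends were called lower and 1 higher. That difference between arms was not tested.

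The ends called lower held 66.7% and 67.6% of the end peaks of the pull-downs, against 84.6% and 83.3% of those of the inputs. Narrow peaks alone gave 16 of 37 ends called lower, with a median of -0.28, where 7.84% of 970 tiles were called lower. Wide peaks alone gave 19 of the 28 ends that could be tested, with a median of -1.52, where 16.7% of 504 tiles were called lower. The other 9 ends had too few wide peaks for the minimum mean of 10 per library.

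**Figure D3:**
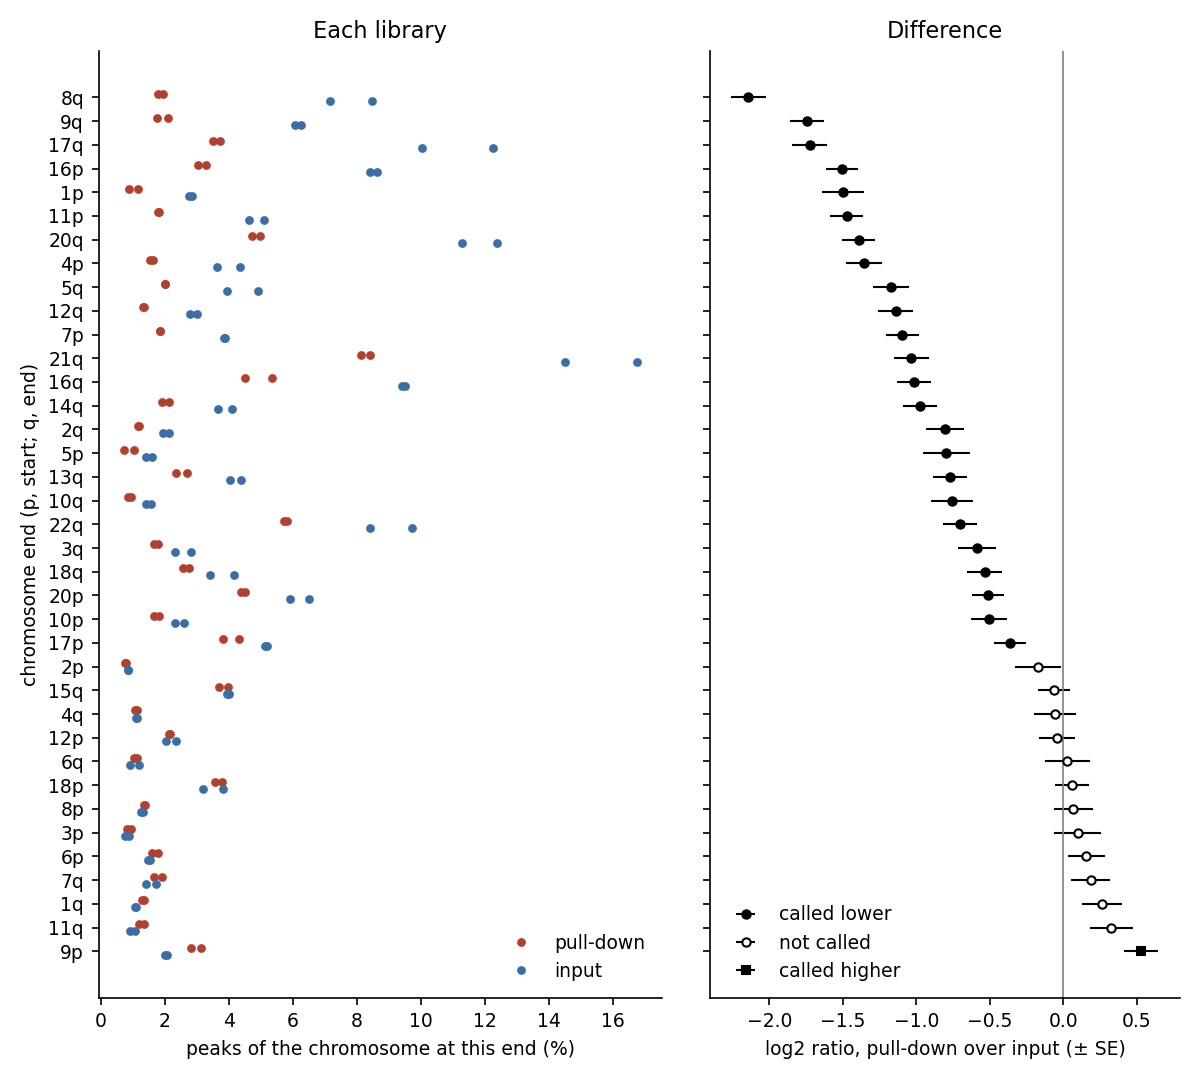
The 37 ends are ordered by log2 ratio. The left panel plots the percentage of each chromosome's peaks that lie at that end in each library, and the right panel the limma log2 ratio, pull-down over input, with its standard error. Filled circles mark the 24 ends called lower, open circles the 12 not called, and the square 9p, the end called higher.

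The lowest ratio of all 971 tiles was at the end of 8q (chr8:143292301-146292300), the tip that carries HSF1, which encodes the main heat-shock transcription factor, and PLEC, for the cytoskeletal linker plectin. It held 97 and 103 peaks in the pull-downs, against 121 and 146 in the inputs. That was 1.96% and 1.79% of the peaks of chromosome 8 in the pull-downs, against 8.46% and 7.16% in the inputs. The inputs thus listed more peaks there in absolute number, although their lists are much shorter. The log2 ratio was -2.14 (SE 0.12, limma adjusted p = 1.1e-11), which makes the ratio to the rest of the chromosome 4.41 times as high in the inputs. Of 61 sites found in both inputs at 8q, 43 had no pull-down peak.

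The end of 9q (chr9:138044129-141044128), where NOTCH1 lies, the gene of a receptor for signals between neighbouring cells, held 68 and 94 peaks in the pull-downs, against 72 and 99 in the inputs. Its share of chromosome 9 was 1.75% and 2.11% in the pull-downs, against 6.26% and 6.07% in the inputs. The log2 ratio was -1.74 (SE 0.12, limma adjusted p = 3.8e-10). Wide peaks were 29.4% and 28.7% of its peaks in the pull-downs, against 55.6% and 54.5% in the inputs.

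The end of 17q (chr17:78146079-81146078) carries FASN, for fatty acid synthase, and ACTG1, for cytoplasmic gamma actin. It held 128 and 166 peaks in the pull-downs, against 179 and 209 in the inputs, the most input peaks of any end. Its share of chromosome 17 was 3.52% and 3.74% in the pull-downs, against 12.2% and 10.0% in the inputs, and the log2 ratio was -1.73 (SE 0.12, adjusted p = 4.7e-10 in limma). Narrow peaks gave -1.93 here (adjusted p = 0.00012, limma) and wide ones -1.28 (adjusted p = 0.0062, limma). At the other 5 lowest ends the wide peaks had the lower ratio, and the difference between the classes was not tested.

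The start of 16p (chr16:1-3000000) carries the alpha-globin genes, which serve red blood cells, as well as TSC2, a brake on the mTOR growth pathway. It held 99 and 122 peaks in the pull-downs, against 100 and 148 in the inputs. The share was 3.05% and 3.28% in the pull-downs, against 8.40% and 8.61% in the inputs, and the log2 ratio was -1.51 (SE 0.11, limma adjusted p = 7.6e-10). The start of 1p (chr1:1-3000000), with the interferon-induced ISG15, held 0.873% and 1.17% of the peaks of chromosome 1 in the pull-downs, against 2.85% and 2.76% in the inputs. Its log2 ratio was -1.50 (SE 0.14, limma adjusted p = 5.3e-08). The start of 11p (chr11:1-3000000), with HRAS, for a growth-signalling GTPase, and the imprinted IGF2, for an insulin-like growth factor, held 1.80% and 1.81% in the pull-downs, against 5.11% and 4.63% in the inputs. Its log2 ratio was -1.48 (SE 0.11, limma adjusted p = 2.1e-09). At all 6 of these ends the pull-down and input shares were farther apart than the replicates of a kind. The replicates were not equally close everywhere. The inputs of 17q had 12.2% and 10.0%, and the pull-downs of 1p 0.873% and 1.17%.

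The other 18 ends called lower ran between -1.39 at 20q and -0.36 at 17p. The end of 20q held 4.73% and 4.98% of its chromosome's peaks in the pull-downs, against 12.4% and 11.3% in the inputs. The end of 21q held the largest shares of any end, 8.14% and 8.41% in the pull-downs, against 14.5% and 16.7% in the inputs (log2 ratio -1.03). At 21q wide peaks gave -2.00 (adjusted p = 0.00027, limma) and narrow peaks -0.27 (adjusted p = 0.153, limma), and the difference between the classes was not tested. At 2q the narrow peaks gave 0.06 (adjusted p = 0.79, limma) and the wide ones -1.65 (adjusted p = 0.0034, limma). The end of 16q had the most pull-down peaks, 146 and 199, against 112 and 163 in the inputs, and wide peaks were common there in both kinds of library, 47.9% and 49.7% in the pull-downs, against 53.6% and 59.5% in the inputs.

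The start of 9p (chr9:1-3000000) was the end called higher. It carries long genes such as DOCK8, for a regulator of the cytoskeleton in immune cells, and SMARCA2, for a chromatin-remodelling ATPase. It held 109 and 139 peaks in the pull-downs, against 23 and 34 in the inputs. These were 2.81% and 3.12% of the peaks of chromosome 9 in the pull-downs, against 2.04% ± 0.06 in the inputs (SD, n = 2). The log2 ratio was 0.53 (SE 0.12, limma adjusted p = 0.0012), with a counting error of 0.21 on the same scale. The direction held in every setting tried, but the call did not: without pull-down 2 the adjusted p was 0.067 (limma), with lists of equal length 0.17, with the better-scoring 50% of peaks 0.12, with narrow peaks alone 0.15, with the minus strand alone 0.066 and with ends of 1 Mb 0.058. Wide peaks numbered 19 and 33 in the pull-downs there and 2 and 4 in the inputs. Only 1 of 21 sites found in both inputs at 9p had no pull-down peak.

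The 12 ends that passed in neither direction lay between -0.17 at 2p and 0.33 at 11q. At 11q the pull-downs held 1.19% and 1.35% of the chromosome's peaks and the inputs 0.917% and 1.08% (adjusted p = 0.088, limma). At 1q, where a cluster of olfactory receptor genes lies, they held 1.30% and 1.37%, and the inputs 1.12% and 1.09%, with a log2 ratio of 0.26 (adjusted p = 0.14, limma). The end of 15q had values on both sides of 0. Its wide peaks gave -1.48 (adjusted p = 0.018, limma) and its narrow peaks 0.47 (adjusted p = 0.11, limma), and together they gave -0.07.

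The 2 ends of one chromosome often differed from each other. For the 16 chromosomes with both ends, the start was set against the end directly, in a limma fit over 402 symmetric pairs of tiles, a test added after the values were seen. It called 13 of the 16 pairs, 8 with the start higher and 5 with the end higher, where 38.3% of all pairs of tiles were called. The median absolute difference was 0.94, against 0.35 over all pairs. Without pull-down 1 the test called 5 of the 16 pairs, where 2.74% of all pairs were called, and without pull-down 2 it called 4, where 2.25% were. The pairs on chromosomes 9, 8, 11 and 1 were called in every setting in which they were tested. The widest gaps were on chromosome 9, 2.20 (SE 0.20, limma adjusted p = 3.3e-24), and on chromosome 8, 2.12 (SE 0.22, limma adjusted p = 2.0e-18), both with the start higher. At 8p (chr8:1-3000000), which carries DLGAP2, for a scaffold protein of synapses, the share was 1.35% and 1.39% in the pull-downs, against 1.26% and 1.32% in the inputs, with a log2 ratio of 0.07. Chromosomes 11 and 1 ran the other way, with -1.75 (SE 0.22, limma adjusted p = 1.8e-13) and -1.73 (SE 0.18, limma adjusted p = 2.6e-19). On chromosomes 9, 8, 11 and 1 the standard error was below the counting error of 1 end alone, so these adjusted p-values leave out part of it. Chromosome 6 had the closest ends, at 0.16 for the start and 0.03 for the end.

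**Figure D4:**
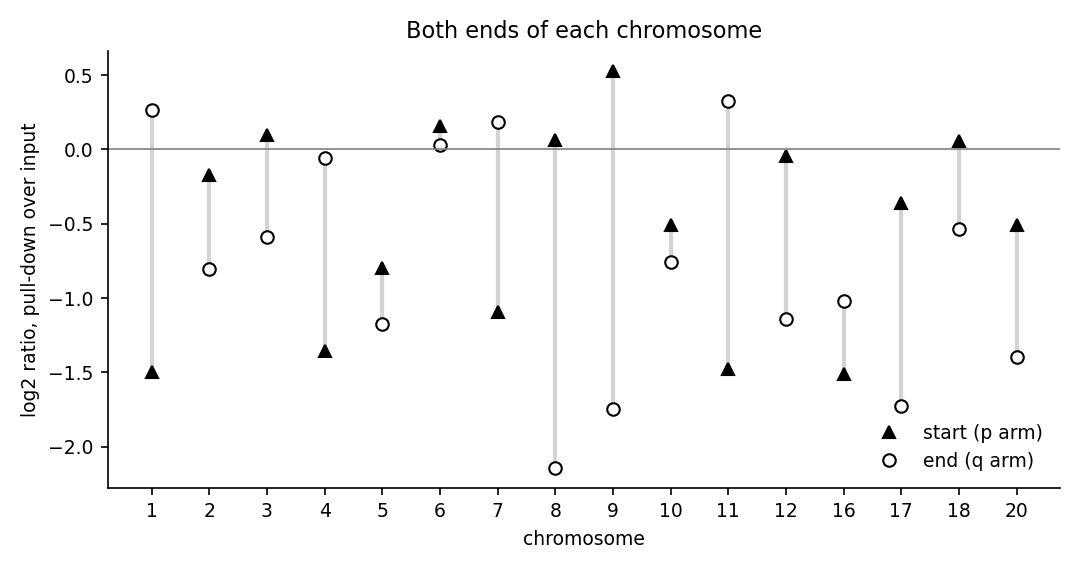
For each of the 16 chromosomes with both ends, the log2 ratio (pull-down over input) is plotted for the start (triangle) and for the end (open circle), joined by a grey line. The lines are longest on chromosomes 9 and 8, with the start higher, and on chromosomes 11 and 1, with the end higher.

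Peaks at the ends were found again in the other replicate less often than peaks elsewhere, where 1 shared base on the same strand counted as an overlap. Of end peaks, 59.9% of pull-down 1 and 49.7% of pull-down 2 overlapped a peak of the other pull-down, against 65.8% and 56.9% on the rest. For the inputs, 68.0% and 49.7% were found again at the ends, against 78.9% and 54.4% on the rest. All 4 libraries moved the same way over all peaks. Split by width, the wide peaks of input 2 were the exception, at 46.8% at the ends and 43.2% on the rest.

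Input peaks without a pull-down counterpart were far more common at the ends than elsewhere. On the rest of the chromosomes, 74.1% of the peaks of input 1 and 70.4% of those of input 2 overlapped a pull-down peak. At the ends it was 42.4% (Wilson interval 40.2 to 44.7) and 41.7% (39.8 to 43.7). In the reverse direction, 30.2% and 27.1% of pull-down peaks at the ends overlapped an input peak, against 29.7% and 26.4% on the rest. Wide pull-down peaks overlapped an input peak more often at the ends, at 29.0% (25.8 to 32.4) and 25.0% (22.5 to 27.8), against 23.4% and 18.9% on the rest, and narrow ones did so at 30.5% and 27.8%, against 30.9% and 28.1%. For input peaks the gap was present in both width classes. Narrow ones were found in a pull-down at 59.4% and 57.6% at the ends, against 82.2% and 80.9% on the rest, and wide ones at 21.3% and 22.8%, against 41.7% and 38.9%.

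The same contrast held for sites found in both replicates. The 2 pull-downs shared 1890 sites at the ends, of which 1046, or 55.3% (53.1 to 57.6), overlapped no input peak, against 57.3% on the rest. The difference of -1.97 percentage points had an interval of -4.26 to 0.30, which includes 0. With wide peaks alone it was -10.1 points (-16.5 to -3.96), but narrow input peaks were left out there as well. With all input peaks kept, 52.7% (48.2 to 57.1) of the wide pull-down sites at the ends overlapped no input peak. On the rest it was 61.9%. These intervals express counting error alone. The 2 inputs shared 1223 sites at the ends, of which 564, or 46.1% (43.3 to 48.9), overlapped no pull-down peak. On the rest it was 3407 of 19412, or 17.6%. Among narrow sites these shares were 23.6% at the ends and 8.64% on the rest, and among wide sites 69.1% and 45.7%. The sites without a pull-down peak at the ends had a median width of 95 bases, against 19 bases for the input sites that did overlap one.

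Input peaks at the ends were gathered in fewer places than pull-down peaks. Counting windows of 100 kb on 1 strand, the 10 fullest windows held 5.29% and 5.33% of the end peaks in the pull-downs, against 10.6% and 9.72% in the inputs. The inputs also have fewer peaks at the ends to spread over windows. The window with the most input peaks was on the minus strand of 17q (chr17:80000001-80100000). It held 12 and 14 peaks in the pull-downs, against 44 and 57 in the inputs, which per 10000 peaks of a list is 1.25 ± 0.01 for the pull-downs and 14.2 ± 1.0 for the inputs (SD over the 2 libraries). A neighbouring window on the same strand (chr17:79800001-79900000) held 13 and 20 peaks in the pull-downs, against 33 and 36 in the inputs. Without its fullest input window, 17q still gave a log2 ratio of -1.54.

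Of the other 4 windows with the most input peaks, 1 lay at 5q (chr5:179100001-179200000, plus strand), with 6 peaks in each pull-down, against 16 and 17 in the inputs. Another lay at 16p (chr16:2800001-2900000, plus strand), with 2 and 7 in the pull-downs, against 11 and 25 in the inputs. The window at 8q (chr8:144900001-145000000, minus strand) had 5 and 3 in the pull-downs, against 15 and 19 in the inputs. The window at 16q (chr16:88700001-88800000, minus strand) had 3 and 8 in the pull-downs, against 14 and 19 in the inputs. In all 6 windows the inputs listed more peaks than the pull-downs in absolute number. These windows were chosen by their input peaks, so their direction is a description, with no test.

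The windows richest in sites that both pull-downs shared and no input peak overlapped held at most 7 such sites. On the minus strand of 9p (chr9:2700001-2800000) there were 16 and 25 peaks in the pull-downs, 8 and 13 of them wide, against 2 and 1 in the inputs. With lists of equal length the mean was 0.510 per 10000 peaks in both kinds of library, so no difference was left. At 16q (chr16:89400001-89500000, minus strand) there were 21 and 25 peaks in the pull-downs, against 1 and 6 in the inputs. At 15q (chr15:101400001-101500000, plus strand) the 2 kinds of peak lay side by side, with 28 and 27 peaks in the pull-downs, 4 and 3 of them wide, and 14 and 17 in the inputs, 14 and 13 of them wide. Per 10000 peaks of a list that was 2.67 ± 0.35 for the pull-downs and 4.39 ± 0.52 for the inputs. The log2 ratio there was -0.72, and -3.87 with the better-scoring 50% of peaks. At 20q (chr20:61300001-61400000, plus strand), where the end as a whole was called lower, this window held 24 and 29 peaks in the pull-downs, against 5 and 10 in the inputs. Per 10000 peaks of a list that was 2.55 ± 0.08 for the pull-downs and 2.03 ± 0.47 for the inputs, and with lists of equal length the log2 ratio turned to -3.58. The other 4 such windows, at 2q, 20p, 13q and 1q, held between 7 and 12 peaks in a pull-down and at most 5 in an input. Per 10000 peaks of a list the log2 ratio was -0.05 at 2q, -0.03 at 20p, 1.19 at 13q and 1.23 at 1q, and with lists of equal length it was -2.58 at 2q, -0.58 at 20p, -1 at 13q and 1 at 1q. These windows were chosen by their pull-down sites, so they are a description, with no test.

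The best-scoring site at the ends that both pull-downs shared and no input peak overlapped was at 2q (chr2:241963670-241963695, minus strand, 26 bases). It ranked 452 in pull-down 1 and 355 in pull-down 2, with scores of 254 and 277 in the deposited lists. The next was at 1p (chr1:1437669-1437696, minus strand, 28 bases), ranked 2313 and 1862. The other 3 of the top 5 lay at 9q (chr9:140448622-140448655, plus strand), 15q (chr15:99874610-99874639, plus strand) and 17p (chr17:1258296-1258312, minus strand), with mean ranks between 4468 and 4841. Of these 5 sites, 4 lay at ends called lower, which held 66.7% and 67.6% of all end peaks in the pull-downs. Single sites free of input peaks were thus listed there too.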

How the data were processed

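The authors deposited a separate peak list for each sample, with positions, strand and a score for every peak. The deposited score is a whole number of at least 10 whose meaning is not stated. It was used for ranks and filters inside a list, and its medians are given as a description. The other values deposited by the authors are positions, and peaks are 2 to 201 bases wide. STAR, featureCounts and GRCh38 are named in the submitters' processing notes. The peak caller is not given in the sources used here. Of the end peaks, 1099 on 13 chromosomes lie beyond where GRCh38 stops, and 0 listed peaks lie past the GRCh37 end, with lengths from general knowledge. Positions were therefore taken as GRCh37. The last listed peaks lay 15.7 to 202 kb inside the GRCh37 ends.

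Peaks were counted by midpoint in tiles of 3 Mb. Then log2((tile peaks + 0.5)/(peaks on the rest of the chromosome + 0.5)) was fitted with limma 3.58.1 in R 4.3.3 (lmFit, eBayes with a trend), over tiles with a mean of at least 10 peaks, at an adjusted p of 0.05. The fit was also run on simulated peak counts, drawn independently for each tile and library. That run cannot give the error rate in these data, where peaks close together are not independent. Single values per library had exact permutation tests. Overlaps used bedtools 2.31.1 and 1 base on the same strand. Intervals are 95% Wilson intervals. Alternatives changed list length, score, width, strand, end size, scaling, weights, pseudocount, minimum, pairing and libraries.

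The members, window rules and tests were chosen with earlier results of these data known. The ends named in full were the 6 lowest and up to 6 highest of those called whose groups do not overlap. The windows named were the 8 with the most shared pull-down sites free of input peaks and the 6 with the most input peaks. Deviations of same-numbered replicates correlated at 0.15 over 971 tiles. With 2 pairs the samples share only a number.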

Additional observations from a re-analysis of the deposited data

Results flagged for a closer look

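On 7 chromosomes the start and the end had log2 ratios (pull-down over input) of opposite sign, and the limma test of start minus end passed. With the start higher, these were chromosome 9, 2.20 (start 0.53, end -1.74), chromosome 8, 2.12 (0.07 and -2.14), chromosome 3, 0.67 (0.10 and -0.59), and chromosome 18, 0.57 (0.06 and -0.54). With the end higher, they were chromosome 11, -1.75 (start -1.48, end 0.33), chromosome 1, -1.73 (-1.50 and 0.26), and chromosome 7, -1.25 (-1.10 and 0.18). Of the ends with a positive ratio here, only 9p was itself called higher. The test of start minus end was added after the values were seen. On all 7 chromosomes its limma standard error was below the counting error of 1 end alone. On chromosome 18 it was 0.18, against 0.24 at 18q, and on chromosome 9 it was 0.20, against 0.21 at 9p. The adjusted p-values of these differences thus leave out part of the counting error. The calls on chromosomes 9, 8, 11 and 1 held in every setting in which they were tested. The call on chromosome 7 was lost with lists of equal length (-0.25) and with the better-scoring 50% of peaks (-0.24). It also missed the threshold without pull-down 1 (-1.35, limma adjusted p = 0.0501) and without pull-down 2 (-1.15, limma adjusted p = 0.0645), where its size stayed close to that with all libraries. The call on chromosome 3 was lost with narrow peaks alone (0.56), without input 1 (0.42), without pull-down 1 (0.54) and without pull-down 2 (0.81). The call on chromosome 18 was lost with lists of equal length (0.30), with narrow peaks alone (0.18), without pull-down 1 (0.58) and without pull-down 2 (0.56). What differs between these ends was not tested.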

How the results depend on the processing

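The share of peaks at the ends was lower in the pull-downs in every setting run. The log2 difference, -0.92 as reported, was -0.56 for narrow peaks alone and -1.42 for wide peaks alone, -0.86 for the better-scoring 50%, -1.05 for ends of 2 Mb, -0.71 for ends of 5 Mb, -0.75 for starts alone, -1.04 for long-arm ends alone, -0.73 without chromosomes 16, 17, 20, 21 and 22, and -1.33 for bases covered in place of peaks. Leaving out 1 library at a time gave -0.96 to -0.88. The difference in wide share, -15.0 points, was -21.6 with lists of equal length, -11.2 with ends of 1 Mb, -17.3 with wide peaks from 30 bases and -7.86 from 100 bases, and leaving out 1 library at a time gave -17.0 to -13.0. The share of shared pull-down sites free of input peaks differed by 0.76 points with narrow peaks alone (-1.87 to 3.34). It differed by -10.1 points with wide peaks alone (-16.5 to -3.96). Each of these settings also left out the input peaks of the other width. With lists of equal length this share differed by 0.29 points (-3.18 to 4.19). The intervals express counting error alone, because sites close together are not independent.

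Ends called lower numbered 16 to 26 over all settings, and 22 to 24 with 1 library left out. Ends called higher, 1 as reported (9p), were 0 with narrow peaks alone, 2 with the better-scoring 50%, wide peaks alone, the minus strand alone or ends of 5 Mb, 3 with ends of 2 Mb, 4 with lists of equal length, and 0 to 2 with 1 library left out. Without pull-down 2 it was 0. The ends called higher were not always 9p. With lists of equal length they were 11q (log2 ratio 0.81), 1q (0.55), 6p (0.50) and 4q (0.50). With the better-scoring 50% they were 11q (0.75) and 6p (0.47). On the minus strand alone they were 4q (2.06) and 1q (0.63), and with ends of 1 Mb it was 7q (0.83). In none of those settings was 9p called. Of the 25 called ends, 11 kept their call in every setting where they were tested. The direction turned in some setting at 2 of the 25 called ends, 2q and 17p, and at all 12 of the others. The turned values that belong to a called end or passed the test were those of 4q (0.50 with equal lengths, 2.06 on the minus strand, where input 1 had no peak), 7q (-0.54 with equal lengths, -0.66 with the better-scoring 50%), 2q (0.064 with narrow peaks), 17p (0.081 on the plus strand, 0.18 with ends of 1 Mb) and 11q (-0.29 with ends of 5 Mb). For start minus end, the direction turned on chromosome 16 (0.24 with equal lengths) and chromosome 2 (-0.19 with narrow peaks). The test of start against end called 13 of 16 pairs as reported, 7 with narrow peaks alone, 4 of 8 with wide peaks alone, and 4 to 13 with 1 library left out. The causes were not tested.

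With the replicate number as a block, 24 ends were called lower and 1 higher, as without it. Depth is unknown. The limma standard errors of the called ends, 0.11 to 0.16, come from 2 libraries a group and are drawn towards a trend over all tiles. The counting error ran from 0.11 to 0.27 over the 37 ends. At every end but 17q, called or not, the limma standard error was below the counting error. At 9p, for example, it was 0.12 against 0.21. The adjusted p-values given for single ends rest on these smaller errors, so they leave out part of the counting error. Those of start minus end on the flagged chromosomes leave out part of it as well. Why the limma errors were smaller was not tested. Weighting by peak number gave the same 24 and 1 calls. The smallest called ratio relative to its counting error was 2.27 times, at 18q.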
